A study of Mus musculus with 4 samples.

Results

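The immunoglobulin constant genes, which encode the parts of the antibody chains that do not bind antigen, were examined together with 2 genes of antibody secretion in single-cell RNA-seq of DLA tumors. The set held 10 of the 32285 genes in the deposited matrices, chosen by symbol: the kappa light chain gene Igkc, the lambda light chain genes Iglc1, Iglc2 and Iglc3, the heavy chain genes Ighm, Ighd, Igha and Ighg2b, the joining chain gene Jchain and the chaperone gene Mzb1. Each of the 10 symbols was found once, and none of the 10 entered the B cell gate. Cells were called B-gated where they had at least 2 unique molecular identifiers (UMIs, each counting 1 captured RNA molecule) over Cd79a, Cd79b and Ms4a1 and at most 2 UMIs over the keratins Krt8 and Krt18. The gate held 180 of 1831 kept cells in Treated 1 and 159 of 1091 in Treated 2, together 339 of 2922 cells of the SP11-treated mice. Only 1 of 916 cells passed it in Control 1, and 0 of 566 passed in Control 2 (3 counts of that total would be 0.53%), so the per-cell account rests on the 2 SP11 libraries.

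DLA cells are a transplantable mouse tumor line that the labels call a lymphoma, and they were injected into the peritoneum of Swiss albino mice. The 2 control tumors carry the label untreated, where the supplement speaks of vehicle. The 2 treated tumors came from mice given SP11, an inhibitor of the chaperone HSP90, by mouth at 30 mg/kg for 17 days. All 4 libraries shared the same tumor line and the same 10x Genomics 3′ chemistry, the labels name no age, sex or animal for a library, and p-values below measure only the spread between these samples. The 4 libraries held 9646197 to 13632163 UMIs, and 566 to 1831 cells per library had at least 200 detected genes and at most 10% mitochondrial UMIs. Pairs of libraries shared 60 to 359 cell barcodes, and no shared barcode was B-gated in both. Tumor-gated cells had at least 5 keratin UMIs: their keratin and epithelial markers summed to 3047 to 5672 CPM (UMIs of a gene scaled to 1000000 UMIs of the sum) in the 4 libraries, while the list of 10 B cell markers summed to 15.2 to 29.2 CPM and the list of 5 T cell markers to 0.211 to 6.17 CPM, where the gate itself sets high keratins and caps 3 of the B cell markers. The T cell markers, which the gate did not use, were thus near 0 in cells labelled as lymphoma.

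A B cell makes 1 antibody from a heavy chain and either a kappa or a lambda light chain. Its heavy chain constant genes lie in a row, and a naive cell transcribes the first of them, Ighm and Ighd, into IgM and IgD. Class switching then brings a gene for IgG, IgE or IgA next to the rearranged variable segment, and plasma cells, which secrete antibody, transcribe the chosen genes at very high levels together with Jchain, which joins IgM and IgA into larger forms. Mzb1 aids the folding and secretion of these proteins in the endoplasmic reticulum.

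On the mouse build GRCm38 (mm10), the annotation places Igkc at chr6:70726435-70726966 on the plus strand. The heavy chain genes lie on the minus strand of chromosome 12, from Ighm (chr12:113418558-113422730) and Ighd (chr12:113406604-113416324) to Ighg2b (chr12:113302965-113307933) and Igha (chr12:113254830-113260236). Jchain is at chr5:88519809-88527891 on the minus strand. The lambda genes lie on the minus strand of chromosome 16, Iglc1 at chr16:19061618-19062071, Iglc3 at chr16:19065230-19065681 and Iglc2 at chr16:19198396-19200351. The last 240 bases of the coding part of the 3 lambda genes, the end nearest to where the assay reads, are printed here. Iglc2 and Iglc3 were alike enough for a read to fit both, and how the counting treated such reads was not tested. Capitals mark bases without an identical partner in the pairwise alignment, against Iglc2 for Iglc1 and Iglc3 and against Iglc3 for Iglc2, and the sequences come from GENCODE M21 and run 5′ to 3′.
Iglc1, chr16:19061755-19061994, minus strand: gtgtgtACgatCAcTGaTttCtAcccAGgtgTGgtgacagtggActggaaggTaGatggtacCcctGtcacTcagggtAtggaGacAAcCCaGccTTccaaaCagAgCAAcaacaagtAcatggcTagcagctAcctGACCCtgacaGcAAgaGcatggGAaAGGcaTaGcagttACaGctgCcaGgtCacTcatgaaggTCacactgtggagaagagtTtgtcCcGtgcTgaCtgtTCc
Iglc2, chr16:19198539-19198778, minus strand: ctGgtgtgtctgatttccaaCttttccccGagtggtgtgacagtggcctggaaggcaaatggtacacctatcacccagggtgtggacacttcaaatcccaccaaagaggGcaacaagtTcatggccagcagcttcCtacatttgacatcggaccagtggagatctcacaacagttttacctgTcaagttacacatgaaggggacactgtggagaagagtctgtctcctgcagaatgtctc
Iglc3, chr16:19065368-19065607, minus strand: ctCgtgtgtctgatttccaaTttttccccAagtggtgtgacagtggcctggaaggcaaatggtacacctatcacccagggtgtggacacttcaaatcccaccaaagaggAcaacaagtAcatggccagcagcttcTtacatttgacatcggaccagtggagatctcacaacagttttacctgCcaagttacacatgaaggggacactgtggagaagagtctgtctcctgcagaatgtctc
Iglc2 and Iglc3 differed at 7 of the 240 printed bases each, and Iglc1 carried 68 bases without a partner in Iglc2. Over the whole coding part Iglc2 and Iglc3 were identical at 303 of 315 aligned columns (96.2%), and over the transcripts at 431 of 458 columns (94.1%), with 79 as the longest identical run. Iglc1 was identical to Iglc2 at 234 of 319 columns (73.4%) and to Iglc3 at 236 of 318 columns (74.2%). Values of Iglc2 and Iglc3 are therefore each uncertain. Their sum with Iglc1 is used as the lambda level below, and it would be too low if reads that fit both were dropped.

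The gate used Cd79a, Cd79b and Ms4a1, so the B identity was read from markers outside it. Ebf1, a transcription factor of the B lineage, had a UMI in 96 of 180 B-gated cells in Treated 1 and 136 of 159 in Treated 2, and Pax5, another such factor, in 29 and 72. Hemoglobin genes (4 listed) took 79007 CPM of the B-gated sum in Treated 1 and 62483 CPM in Treated 2, and the 7 myeloid markers summed to 1569 and 753 CPM, against 14384 and 13244 CPM in the myeloid-gated cells. The part of such RNA in the immunoglobulin values was not tested. At the lower edge of the gate, 8 of 9 cells with exactly 2 B gene UMIs had an Igkc UMI in Treated 1 and 9 of 9 in Treated 2, and just outside it, with 1 such UMI, 5 of 19 and 3 of 21 had one. A further 56 cells of Treated 1 and 24 of Treated 2 had at least 2 B gene UMIs with 5 or more keratin UMIs. These were left out of all gates, and Igkc was seen in 45 and 15 of them.

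Levels were summed over the cells of a gate in a library and are given as UMIs and as CPM of that sum. The assay counts molecule ends, so these levels were not divided by gene length. Igkc led in the B-gated cells with 2381 UMIs (11856 CPM) in Treated 1 and 4975 UMIs (16580 CPM) in Treated 2. Ighm, the IgM heavy chain gene, followed with 371 UMIs (1847 CPM) and 746 UMIs (2486 CPM). Igha, the IgA gene, had 256 UMIs (1275 CPM) and 504 UMIs (1680 CPM). Igkc was thus the highest of the 10 genes in both libraries and Ighm the next. Among the lambda genes, Iglc1 had 286 and 349 UMIs, Iglc2 166 and 280, and Iglc3 70 and 95. Mzb1 had 113 and 201 UMIs and Jchain 35 and 124. Ighd and Ighg2b were lowest, with 8 and 41 UMIs for Ighd, the IgD gene, and 6 and 71 UMIs for Ighg2b, an IgG gene.

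By the mean over the 2 libraries, the order of levels was Igkc at 14218 CPM ± 3340 (SD, n = 2), Ighm at 2167 ± 452, Igha at 1477 ± 286, Iglc1 at 1294 ± 185, Iglc2 at 880 ± 75.3, Mzb1 at 616 ± 75.8, Iglc3 at 333 ± 22.6, Jchain at 294 ± 169, Ighg2b at 133 ± 146 and Ighd at 88.2 ± 68.4. Ighm, Igha and Iglc1 overlapped their neighbours in this order within 1 SD, as did Iglc3, Jchain, Ighg2b and Ighd. The steps from Igkc to Ighm, from Iglc1 to Iglc2, from Iglc2 to Mzb1 and from Mzb1 to Iglc3 exceeded it.

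Where the 3 cells described below as plasma cells were left out, Igkc stood at 9658 and 10044 CPM, and Igha fell out of the upper ranks with 1 UMI (5.02 CPM) and 13 UMIs (44.2 CPM). Jchain was then at 1 and 10 UMIs, and Ighg2b at 78.1 CPM in Treated 2, where 48 of its 71 UMIs came from 1 plasma cell. The levels of Ighm (1861 and 2534 CPM), Iglc1 (1430 and 1172 CPM) and Mzb1 (567 and 642 CPM) stayed near those of the whole gate. The 3 cells therefore set the levels of Igha and Jchain in the B-gated sums, and that of Ighg2b in Treated 2.

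**Figure D1:**
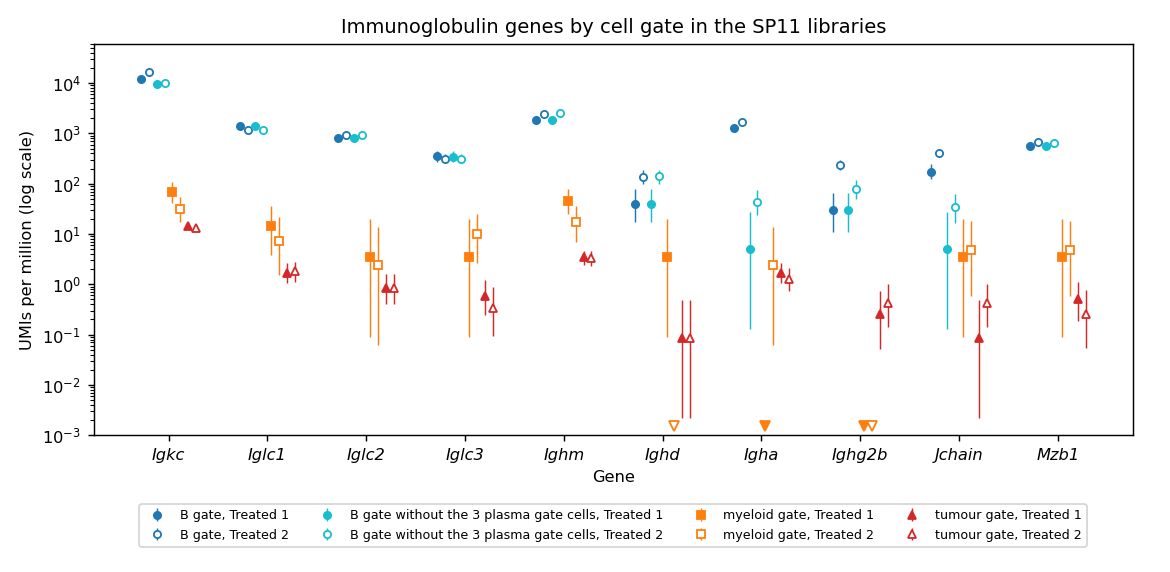
Levels of the 10 genes (x axis) in CPM on a log axis (y axis), in the B gate with and without the 3 plasma cells and in the myeloid and tumor gates of Treated 1 (filled) and Treated 2 (open), with exact Poisson intervals that cover counting error only. Triangles pointing down near the lower edge mark a level of 0. Igha and Jchain, and Ighg2b in Treated 2, dropped when the 3 plasma cells were left out, while Igkc, Ighm and Mzb1 moved little on this scale.

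Light chain use was read in each B-gated cell with at least 2 light chain UMIs, as kappa where Igkc held at least 80% of them, lambda where Iglc1, Iglc2 and Iglc3 held at least 80%, and mixed otherwise. Kappa was called in 117 of 173 cells in Treated 1 (67.6%, exact Clopper-Pearson 95% interval 60.1% to 74.5%) and 113 of 157 in Treated 2 (72.0%, 64.3% to 78.8%), a mean of 69.8% ± 3.07 (SD, n = 2). Lambda was called in 15 cells (8.67%, 4.93% to 13.9%) and 8 cells (5.10%, 2.23% to 9.79%). The remaining 41 cells (23.7%, 17.6% to 30.7%) and 36 cells (22.9%, 16.6% to 30.3%) carried both kinds. Kappa cells thus outnumbered lambda cells in both libraries, with mixed cells more frequent than lambda cells. Intervals here and below cover counting error only, and 7 cells of Treated 1 and 2 of Treated 2 had too few light chain UMIs for a call.

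The mixed cells were not deeper than the kappa cells, with a median of 780 UMIs per cell against 951 in Treated 1 and 1638 against 1686 in Treated 2. Their median was 5 Igkc and 3 lambda UMIs in Treated 1, and 10 Igkc and 5 lambda UMIs in Treated 2. Scrublet marked no B-gated cell of Treated 1 as a doublet, and 2 cells of Treated 2, both called kappa. Among cells with at least 5 light chain UMIs, 74 of 152 in Treated 1 and 67 of 148 in Treated 2 had a kappa share of at least 90%, and 10 and 2 had one under 10%. The kappa share therefore ran from end to end with most cells near the upper end.

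Low lambda counts were widespread in cells called kappa. A lambda UMI was seen in 68 of 117 kappa cells in Treated 1 (58.1%) and 91 of 113 in Treated 2 (80.5%). Myeloid-gated cells of the same libraries, which should lack these genes, had one in 4 of 245 cells (1.63%) and 7 of 204 (3.43%), at similar depth (median 1009 UMIs per cell against 951 in Treated 1, and 1706.5 against 1686 in Treated 2). With each cell thinned to 500 UMIs the shares were 40.2% and 41.6% in kappa cells and 0.816% and 2.45% in myeloid cells. The lambda level in kappa cells was 895 and 1127 CPM, against 21.4 and 19.7 CPM in myeloid cells and 3.17 and 3.02 CPM in tumor cells. These shares differed between the cell types beyond their counting intervals (thinned, 31.2% to 49.6% and 32.4% to 51.2% in kappa cells, and 0.099% to 2.92% and 0.801% to 5.63% in myeloid cells), with no test over libraries. Outside the plasma cells, B-gated cells with 5 to 9 Igkc UMIs held a mean of 1.74 lambda UMIs in Treated 1 and 4.35 in Treated 2, with medians of 1 and 2, and 58% and 80.6% of them had a lambda UMI. Those with 20 or more Igkc UMIs held means of 2.31 and 4.29 and medians of 2 and 3, and 80.8% and 90.2% had one. The latter were deeper, at a median of 1338 against 826 UMIs per cell in Treated 1 and 2218 against 986 in Treated 2.

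In the cells called lambda, the call itself limits Igkc. In Treated 1 their median was 0 Igkc and 8 lambda UMIs, with Igkc at most 1. In Treated 2 their median was 3.5 Igkc and 23 lambda UMIs, with Igkc at most 9. The cell with the highest lambda count carried 68 Iglc1 and 34 Iglc2 UMIs and no Igkc in Treated 1, and the highest in Treated 2 carried 27 Iglc1, 32 Iglc2 and 1 Iglc3 UMIs and no Igkc. Among cells with at least 5 lambda UMIs outside the plasma cells, Iglc1 led in 14 of 25 in Treated 1 and 18 of 41 in Treated 2, Iglc2 in 4 and 16, and Iglc3 in 4 and 1. Of these cells, 17 and 38 carried at least 2 of the 3 lambda genes, and the cause of this was not tested. Some reads could fit both Iglc2 and Iglc3. The highest cells above carried Iglc1 with Iglc2, while other lambda cells carried Iglc1 alone, such as 1 with 25 UMIs in Treated 1 and 1 with 17 in Treated 2.

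**Figure D2:**
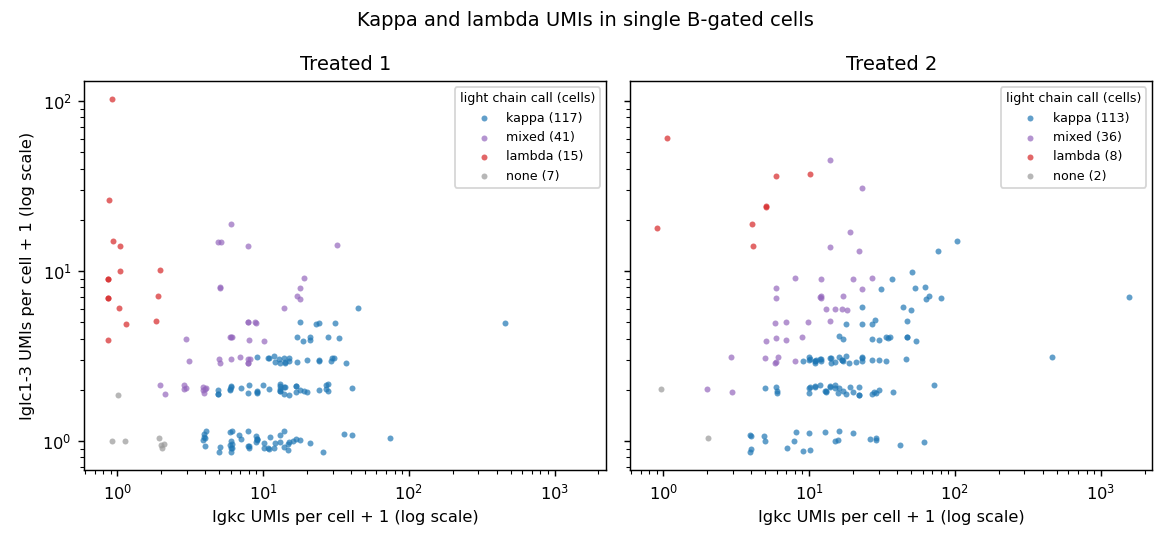
Each point is a B-gated cell of Treated 1 (left) or Treated 2 (right), placed by its Igkc UMIs (x axis) and its summed Iglc1, Iglc2 and Iglc3 UMIs (y axis), both plus 1 on log axes with a small seeded scatter. Kappa cells (117 and 113) spread along 0 to a few lambda UMIs, lambda cells (15 and 8) sit at the upper left, and mixed cells (41 and 36) lie between.

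Heavy chain use was read in each B-gated cell with at least 2 heavy chain UMIs, from the gene that held most of them. Ighm led in 98 of 180 B-gated cells in Treated 1 (54.4%, 46.9% to 61.9%) and 98 of 159 in Treated 2 (61.6%, 53.6% to 69.2%), a mean of 58.0% ± 5.08 (SD, n = 2). Of the cells with at least 2 heavy chain UMIs it led in 89.1% of 110 and 79.7% of 123. IgM was the prevailing isotype by transcript in both libraries. Another 70 and 36 cells had fewer than 2 heavy chain UMIs, and 8 and 9 had ties.

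Ighd was seen beside Ighm in 8 of 180 cells in Treated 1 (4.44%, 1.94% to 8.57%) and 26 of 159 in Treated 2 (16.4%, 11% to 23.0%), a mean of 10.4% ± 8.42 (SD, n = 2). Thinned to 500 UMIs per cell, the shares were 1.11% (0.135% to 3.96%) and 7.55% (3.96% to 12.8%). The 2 libraries thus differed in Ighd by more than counting error in the unthinned counts, and after thinning the upper bound of Treated 1 and the lower bound of Treated 2 were equal to 3 digits. No Ighd UMI was seen without Ighm in Treated 1, and 5 such cells in Treated 2. Fcer2a, the receptor CD23, had a UMI in 1 and 7 B-gated cells, and Cr2, the complement receptor CD21, in 1 and 6.

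A switched isotype led in 4 of 180 cells in Treated 1 (2.22%, 0.609% to 5.59%) and 12 of 159 in Treated 2 (7.55%, 3.96% to 12.8%), a mean of 4.88% ± 3.77 (SD, n = 2). Of these, 1 and 2 were the plasma cells described below. The other 3 of Treated 1 were led by Ighg1, Ighg2c and Ighg3, in 1 cell each with 2 to 4 UMIs. The other 10 of Treated 2 were led by Ighg2b in 5 cells (2 to 6 UMIs), Igha in 3 (2 to 3 UMIs), and Ighg1 and Ighg2c in 1 each. None of these 13 cells had an Ighm UMI, and Ighd led in 0 and 4 cells. With at least 5 heavy chain UMIs required, the switched share was 0.556% and 2.52%, a mean of 1.54%. Ighe, the IgE gene, had 0 UMIs in the B-gated cells of both libraries, which allows up to 14.9 CPM in Treated 1 and 10.0 CPM in Treated 2. Ighg2b and Ighg2c belong to a family of similar genes, so a read may fit both and single calls between them are uncertain.

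**Figure D3:**
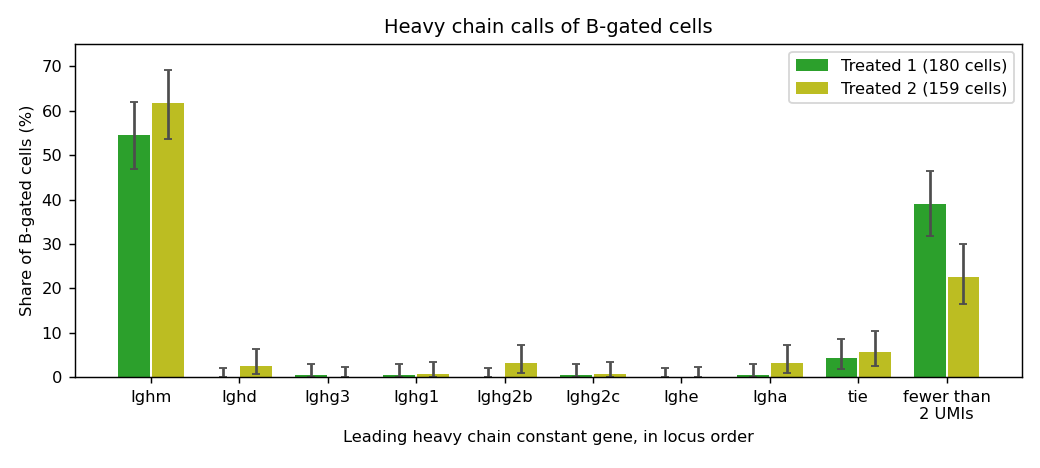
Share of B-gated cells (y axis, %) by leading heavy chain constant gene (x axis, in the order of the locus from Ighm), for Treated 1 (180 cells) and Treated 2 (159 cells), with exact Clopper-Pearson 95% intervals, and with ties and cells under 2 heavy chain UMIs at the right. Ighm stands at 54.4% and 61.6%, and each other gene at 3.14% or less.

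Plasma cells were sought as kept cells whose constant genes made up at least 5% of UMIs, with at least 1 Jchain UMI, at least 2 UMIs over 7 other plasma cell genes, and at most 2 keratin UMIs. The levels of these genes in the cells so chosen are therefore a description. The gate held 1 of 1831 cells in Treated 1 (0.0546%, 0.00138% to 0.304%) and 2 of 1091 in Treated 2 (0.183%, 0.0222% to 0.661%). It held 0 of 916 and 0 of 566 control cells, where a count of 0 allows shares of up to 0.328% and 0.53%, so no group difference could be detected at these cell numbers. All 3 cells were also B-gated through Cd79a and Cd79b, and none had a Ms4a1 UMI.

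The cell of Treated 1 had 1496 UMIs, of which 715 (47.8%) were from constant genes, with 456 Igkc, 255 Igha and 34 Jchain UMIs. The first cell of Treated 2 had 3164 UMIs, of which 1942 (61.4%) were from constant genes, with 1557 Igkc, 379 Igha and 77 Jchain UMIs. The second cell of Treated 2 had 2490 UMIs and 624 (25.1%) from constant genes, with 461 Igkc, 112 Igha, 48 Ighg2b and 37 Jchain UMIs. All 3 were thus led by Igkc and Igha, without Ighm or Ighd, and the last held Ighg2b beside Igha. Their lambda UMIs numbered 4, 6 and 2. Outside them the highest share of constant genes in a kept cell was 5.26% in Treated 1 and 4.52% in Treated 2.

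Counts of other genes of the secretory program were uneven in the 3 cells. Hsp90b1 had 6 UMIs in the plasma cell of Treated 1 and 18 in those of Treated 2, and Ssr4 6 and 8. In the other B-gated cells Hsp90b1 stood at 477 and 363 CPM and Ssr4 at 572 and 442 CPM. The genes named next were sparse. Xbp1, a transcription factor of secretory cells, had 1, 3 and 1 UMIs, and Mzb1 0, 5 and 7. Tnfrsf17, the survival receptor BCMA, had 1, 0 and 5 UMIs, and was at 0 in the other 179 and 157 B-gated cells. Sdc1, the surface marker CD138, was at 0 in all 3. Mki67, a gene of dividing cells, had a UMI in the last cell alone.
The 3 cells each carried 1 kappa variable segment, Igkv4-70 (2 UMIs), Igkv6-15 (7 UMIs) and Igkv4-59 (2 UMIs), which differed from cell to cell. Heavy chain segments were seen in the cells of Treated 2 alone, 1 (Ighv5-12) in the first and 2 in the second, led by Ighv1-82.

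The plasma cells held 255 of 283 Igha UMIs among the kept cells of Treated 1 and 491 of 528 in Treated 2, and 34 of 38 and 114 of 131 Jchain UMIs. Jchain was seen in a further 1 and 6 B-gated cells with at most 1 and 3 UMIs, none of them with constant genes above 2.60% and 3% of UMIs. Mzb1 (chr18:35647267-35649367, minus strand) was spread more widely, in 74 of 179 (41.3%) and 97 of 157 (61.8%) of the B-gated cells outside the plasma gate, and in 25.1% and 28.7% after thinning. Cells with a Mzb1 UMI had more Ighm, 2224 against 1558 CPM in Treated 1 and 2844 against 1802 CPM in Treated 2. They were also deeper, with a median of 1098 against 872 and 1926 against 1154.5 UMIs per cell, and the part of depth was not tested.

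**Figure D4:**
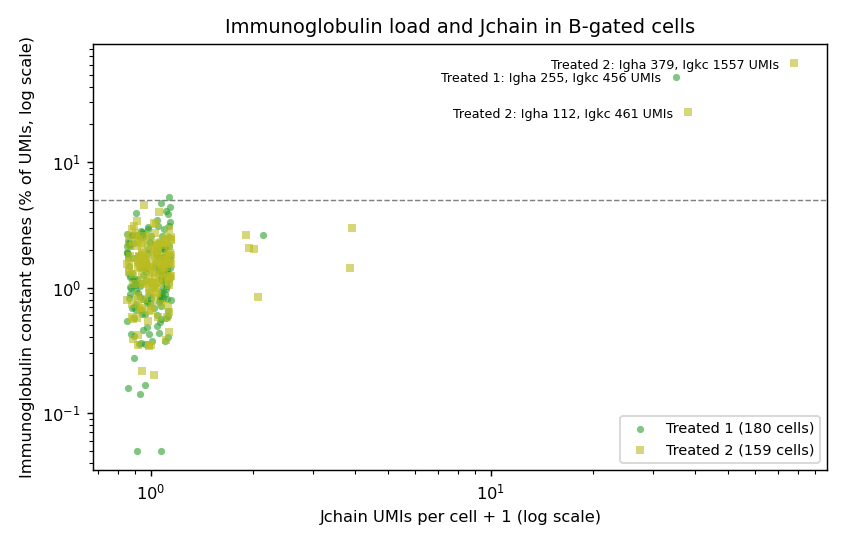
Each point is a B-gated cell, placed by its Jchain UMIs plus 1 (x axis, log scale, with a small seeded scatter) and the share of its UMIs from constant genes (y axis, %, log scale). Shares of 0 are drawn at 0.05, and the dashed line is the 5% limit. The 3 plasma cells stand apart at 25.1% to 61.4%.

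Variable segments, which give each B cell line its own antibody, were detected in few cells. Outside the plasma cells, a heavy chain segment (Ighv genes) had a UMI in 12 of 179 B-gated cells in Treated 1 and 12 of 157 in Treated 2, and a kappa segment (Igkv genes) in 22 and 23. The kappa segments numbered 13 and 16 different genes, and the most frequent was Igkv1-110, which led in 6 and 4 cells. Igkv1-117 led in 2 cells of each library. Among heavy chain segments no gene led in more than 2 cells of a library. A lambda segment was seen in 4 and 1 cells, as Iglv2 in 2 and 1 and Iglv1 in 2 and 0. These detected segments were spread over many genes, and the other cells could not be assigned. Igll1, part of the surrogate light chain of precursor B cells, was at 0, and Vpreb3 had 5 and 9 UMIs.

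The same genes were present at low levels in cells that do not make antibody. In tumor-gated cells of the SP11 libraries, Igkc had 171 UMIs over 1200 cells in Treated 1 (14.6 CPM) and 153 UMIs over 558 cells in Treated 2 (13.2 CPM). In myeloid-gated cells it had 19 UMIs over 245 cells (67.8 CPM) and 13 over 204 (32.0 CPM). These levels were 0.102% ± 0.0311 of the B-gated level for tumor cells and 0.382% ± 0.268 for myeloid cells (SD, n = 2). Per cell, a tumor cell held 1.08% and 0.876% of the Igkc UMIs of a B-gated cell, and a myeloid cell 0.586% and 0.204%. The tumor cells' median depth was 8823 and 19792 UMIs, against 915 and 1686 in B-gated cells. Igkc was seen in 12.8% of tumor cells in Treated 1 and 23.1% in Treated 2, and in 0.75% and 0.538% once thinned to 500 UMIs, against 86.6% and 93.0% of thinned B-gated cells outside the plasma gate. In myeloid cells the thinned shares were 2.04% and 2.45%. Each share in tumor and myeloid cells is read as background.

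The 10 genes lay between 0.0650% and 0.521% of their B-gated level in tumor cells by the mean of the libraries, Mzb1 lowest and Ighg2b highest. Ighm was at 0.159% ± 0.0379 of its B-gated level, Iglc1 at 0.138% ± 0.0250, Iglc2 at 0.0980% ± 0.00793 and Igha at 0.106% ± 0.0406 (SD, n = 2). In a single tumor cell the highest counts were 8 Igkc UMIs and 2 UMIs of Ighm, Iglc1 or Ighg2b. In myeloid cells the count was highest for Igkc, with 9 of the 19 UMIs of Treated 1 in 1 cell, and Ighg2b was at 0 in both libraries. T-gated cells held 0 Igkc UMIs over 7 cells in Treated 1 and 5 over 52 in Treated 2.

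The make-up of these UMIs differed between the B-gated cells with and without the plasma cells. Igha took 7.17% (4.43% to 10.9%) of the 279 UMIs of the 10 genes in tumor cells of Treated 1 and 5.88% (3.33% to 9.52%) of 255 in Treated 2. In the whole B gate it took 6.93% and 6.82%, and without the plasma cells 0.034% and 0.277%. The tumor cells were thus close in their Igha share to the B gate with its plasma cells. In myeloid cells Igha had 0 of 41 UMIs, with an upper bound of 8.60%, and 1 of 33. Ighm took 14.3% (10.4% to 19%) and 14.9% (10.8% to 19.9%) in tumor cells and 31.7% (18.1% to 48.1%) and 21.2% (8.98% to 38.9%) in myeloid cells, against 10.0% and 10.1% in the whole B gate and 12.6% and 15.9% without the plasma cells. For Ighm the tumor cells were thus nearer to the B gate without its plasma cells. The myeloid shares rest on 13 and 7 Ighm UMIs.

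**Figure D5:**
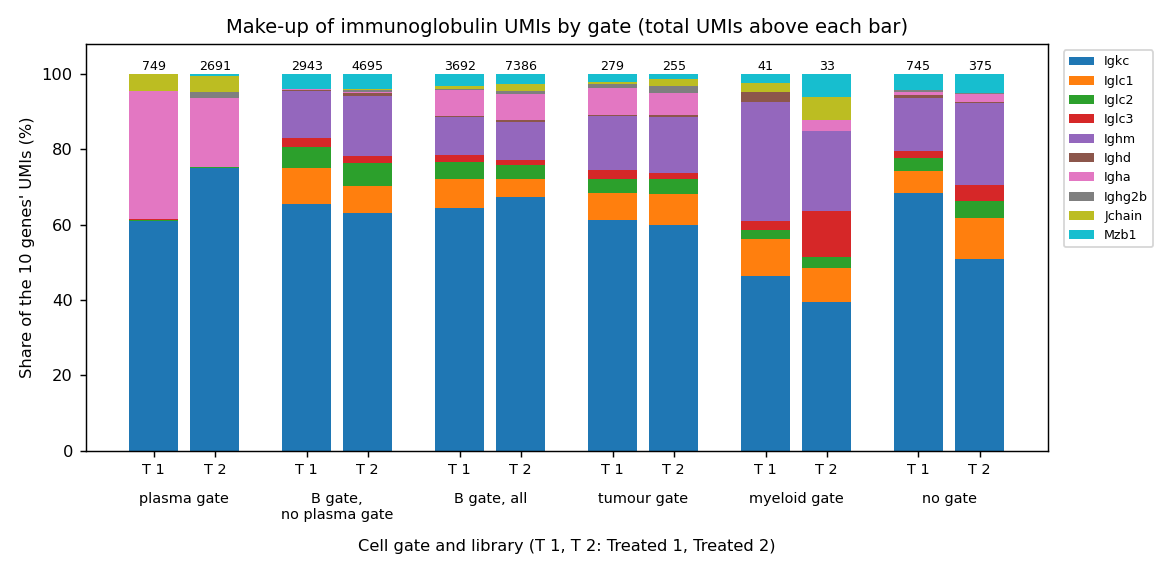
Share of each gene (y axis, %) in the UMIs of the 10 genes, by cell gate and library (x axis, with plasma cells and kept cells in no gate as bars of their own), with the total of these UMIs above each bar. The Igha share of tumor cells (7.17% and 5.88%) sits near that of the whole B gate (6.93% and 6.82%) and far above that of B-gated cells without the plasma cells.

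Whether the members differed between SP11-treated and control tumors was asked on UMIs summed per library. Over all kept cells, all 10 genes were higher in SP11 (edgeR quasi-likelihood test with Benjamini-Hochberg adjustment, 12149 genes tested), where 9.11% of all genes tested were called higher and 1.63% lower. Each of the 10 passed the filter on low counts through the SP11 libraries, so that their count carries no weight of its own. Igkc rose from 2 and 1 UMIs to 3081 and 5337 with SP11, a ratio of levels of 2083 (counting interval 712 to 10100; adjusted p = 2.49e-13). Ighm had 3 and 0 against 530 and 875 UMIs, a ratio of 348 (119 to 1687; adjusted p = 4.16e-11). Ighd had 2 and 0 against 16 and 43 UMIs, a ratio of 21.9 (5.80 to 185; adjusted p = 0.00126). The controls' 2 Ighd UMIs and 1 of their Ighm UMIs came from their only B-gated cell, which had no Igkc UMI. Jchain had 0 and 1 against 38 and 131 UMIs, a ratio of 125 (22.2 to 4983; adjusted p = 2.30e-05).

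The other 6 genes were at 0 in both controls. Against 3 counts over the control group, Igha (283 and 528 UMIs) was at least 201-fold higher, Iglc1 (353 and 415) at least 190-fold, Iglc2 (203 and 308) at least 126-fold, Mzb1 (151 and 225) at least 93.0-fold, Iglc3 (91 and 119) at least 52.0-fold and Ighg2b (12 and 77) at least 22.0-fold. Their adjusted p-values in edgeR ran from 3.28e-11 for Iglc1 to 9.84e-04 for Ighg2b. In no member did the groups overlap, which is a description, since the share of all genes without overlap is not given. More B cells and more RNA per cell cannot be told apart in such sums, and the B-gated cells numbered 1 and 0 in the controls and 180 and 159 in SP11. Leaving out the 3 plasma cells, 9 members were tested and all 9 were called, against 9.06% of genes. DESeq2 called 9, against 5.3% of genes, and not Ighg2b (adjusted p = 0.0649). With the replicate number as a block 10 were called, against 12.5% of genes. A doublet call that left Control 1 with 102 cells gave 7, against 0.637% of genes.

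In tumor cells, where 1.43% of genes tested were called higher and 0.458% lower, 4 of the 10 genes passed the filter, again through the SP11 libraries, and all 4 were called. Igkc had 171 and 153 UMIs with SP11 and 2 and 1 without, a ratio of 88.7 (30.1 to 433; edgeR adjusted p = 2.55e-07). Ighm had 1 and 0 against 40 and 38 UMIs, a ratio of 64.1 (11.2 to 2563; edgeR adjusted p = 3.87e-04). Iglc1 had 0 and 0 against 20 and 21 UMIs, at least 11.2-fold higher (edgeR adjusted p = 0.00259). Igha had 0 and 0 against 20 and 15 UMIs, at least 9.59-fold higher (edgeR adjusted p = 0.00521). Cd79a stood at 0.726 and 1.06 CPM in the controls against 6.42 and 4.74 with SP11, and Cd79b at 0 and 0 against 2.74 and 2.84 CPM, in cells that the gate limits to 1 UMI of these genes. The part of free RNA from B cells in these changes was not tested.
In the tumor cells of the SP11 libraries the remaining genes had 10 and 10 UMIs (Iglc2), 7 and 4 (Iglc3), 6 and 3 (Mzb1), 3 and 5 (Ighg2b), 1 and 5 (Jchain) and 1 and 1 (Ighd), and they were not tested. Without the filter on low counts 5 of 10 were called, against 1.04% of genes, and with the replicate block 4, against 4.11%.

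In myeloid cells no member passed the filter, where 3.88% of the 2396 genes tested were called higher and 2.84% lower (3.13% higher with the replicate block). Igkc had 0 UMIs over the 35 and 20 myeloid cells of the controls and 19 and 13 in SP11, at least 1.71-fold higher. Without the filter 9 members could be tested and 0 were called, against 1% of genes. Of the 9, 1 was at an unadjusted p under 0.05 in edgeR, Igkc, with an adjusted p = 0.0952. DESeq2, run on the filtered genes, had no member to test.

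Other genes of the pathway were read from fixed lists over all kept cells. Of 20 antigen receptor and B cell identity genes, which include the 3 genes of the B gate, 18 were tested and 17 rose, against 9.11% of all genes, with a median log2 fold change of 5.79, or 4.26 with the 6 genes at 0 in both controls set to their bound, against -0.01 over all genes. Those 6 passed the filter on low counts only through the SP11 libraries and had to differ. Cd79b, Cd72, Ms4a1, Blnk and Plcg2, with at most 0.411 CPM in a control library, also passed it through the SP11 libraries. The count of this list is therefore a description. Of the genes that rose, Syk, a kinase of the receptor pathway, went from 0.924 and 1.25 to 16.1 and 22.6 CPM (edgeR adjusted p = 3.47e-09). Btk, another such kinase, was the gene not called, at 5.96 and 7.0 against 7.85 and 7.75 CPM. Of 18 plasma cell genes, 15 were tested and 4 rose (Cd38, Fkbp11, Irf4 and Tnfrsf13b), with a median log2 fold change of -0.05. Of these, Fkbp11, Irf4 and Tnfrsf13b had at most 0.411 CPM in a control library. They passed the filter through the SP11 libraries, so this count is a description as well. DESeq2 did not call Cd38 (adjusted p = 0.131), Fkbp11 (0.165) or Irf4 (0.0573), nor Cd72 of the first list (0.0972). In edgeR, Cd38 was also not called without Treated 2 (adjusted p = 0.291), nor with at least 500 genes per cell (0.105), and Fkbp11 not without Control 2 (0.128). Tnfrsf13b, the receptor TACI that B cells carry as well, went from 0.411 and 0.104 to 7.08 and 7.91 CPM (edgeR adjusted p = 3.21e-07). Xbp1 stood at 21.5 and 27.2 CPM with SP11 against 26.9 and 21.3 CPM. Of 9 class switch genes, 8 were tested and 1 rose, a share near that of all genes. This was Bcl6, a transcription factor of germinal centre B cells, from 1.75 and 2.30 to 4.62 and 4.76 CPM (edgeR adjusted p = 0.0248), and the list had a median log2 fold change of 0.04. Bcl6 was not called by DESeq2 (adjusted p = 0.196), nor by edgeR without Control 1 (0.112), Treated 1 (0.0701) or Treated 2 (0.0608) or with at least 500 genes per cell (0.104), and 2 B-gated cells of each library had a UMI of it. In tumor cells, where 1.43% of genes were called higher, 3 of 7 tested receptor genes rose (Syk, which was not called without Treated 1, and Cd79a and Cd79b, which the gate used) and 0 of 11 plasma cell and 0 of 8 class switch genes, with median log2 fold changes of 1.03, -0.03 and 0.07 against -0.01 over all genes. In myeloid cells 0 of 5 tested receptor genes and 0 of 1 class switch gene were called, while of 6 plasma cell genes Edem1, which helps degrade misfolded proteins, rose from 0 and 0 to 67.8 and 76.3 CPM and Cd38, a surface enzyme, fell from 220 and 157 to 28.5 and 59.0 CPM (edgeR adjusted p = 0.0248 and 0.0218, against 3.88% of genes higher and 2.84% lower). Edem1 passed the filter only through the SP11 libraries, so its call is a description. In the control myeloid sums 3 counts would be 50.8 and 58.8 CPM, not far below its SP11 levels. Edem1 was not called with the replicate block (edgeR adjusted p = 0.0608) or without either control library (0.103 to 0.142). Cd38 was not called without the filter (edgeR adjusted p = 0.0621) or without Control 1, Treated 1 or Treated 2 (0.169 to 0.431). The median log2 fold changes of the 3 lists there were 0.83, -0.33 and 0.34, against 0.04 over all genes.

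Over the 8 sums of B, T, myeloid and tumor cells of the 2 SP11 libraries, the correlation of a member with Igkc ran from r = 0.70 for Ighm to r = 0.99 for Iglc1 (Pearson, log2 CPM + 1). The value for Ighm includes the T sum of Treated 1, where 1 Ighm UMI over 7 cells made 234 CPM beside 0 Igkc UMIs. Outside the lists, the 5 genes most like Igkc were Ralgps2 (r = 0.98), Ero1lb (0.96), Pml (0.94), Gm35019 (0.93) and Ccl17 (0.93). The sums share libraries, and these values are descriptions.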

How the data were processed

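Raw UMI counts per gene and cell were deposited by the authors for 4 libraries, 2 untreated and 2 SP11-treated DLA tumors. Per the file headers, the counts were made by Cell Ranger 7.1.0, and the submitters' processing notes name the build mm10, while the study's methods name hg38. Positions came from GENCODE M21 on GRCm38, the same assembly as mm10, and the IDs of the 10 genes matched. The reference release used in counting is not given in the sources used here.

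The members, lists and gates were chosen with earlier results of these data known. Cells with at least 200 genes and at most 10% mitochondrial UMIs were kept. Besides the B gate, tumor cells had at least 5 Krt8 and Krt18 UMIs. Myeloid cells had at least 5 UMIs over Lyz2, Tyrobp, Fcer1g and Csf1r with at most 1 over Cd3d, Cd3e and Cd3g, and T cells at least 2 over the latter with at most 4 over the former. These gates took at most 1 B gene UMI, and the myeloid and T gates at most 2 keratin UMIs. The other plasma genes were Xbp1, Mzb1, Sdc1, Prdm1, Irf4, Tnfrsf17 and Derl3. Shares have exact Clopper-Pearson intervals computed in scipy 1.17.1, and a share of 0 is given the limit of 3 counts. Shares per gate have no test, since cells of a library are not replicates.

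The quasi-likelihood test of edgeR 4.0.16 under R 4.3.3 was applied to sums per library, after filterByExpr and TMM, and adjusted p-values (Benjamini-Hochberg) under 0.05 were called. On data simulated for each comparison, with 200 genes changed by 4-fold, it recovered 97% over all kept cells, 95% in tumor cells and 91% in myeloid cells, with 11, 8 and 7 false calls. Counts of replicate libraries differed beyond sampling noise (chi-square per degree of freedom 3.12 to 13.6). Named genes were the members, related immunoglobulin genes, genes of 3 lists, up to 5 leading variable segments per family and the 5 genes most like Igkc. The rule for genes of plasma cells needed at least 5 cells and was not applied. Values of some listed genes are not reported here. Doublets were called with Scrublet in scanpy 1.11.5, which marked 5.13% and 8.13% of control cells and 0.928% and 1.47% of SP11 cells. They were kept. A run with another random seed had set a threshold that marked 88.9% of Control 1. The alternatives were a stricter B gate, no keratin UMIs, 500 genes, doublets left out, other call limits, thinning, DESeq2 1.42.0, no filter, a replicate block and leaving out each library.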

Additional observations from a re-analysis of the deposited data

Results flagged for a closer look

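Immunoglobulin UMIs were also present in barcodes and cells that no comparison of cell types used, and barcodes of the same kinds held 0 in the control libraries. Kept cells in no gate and barcodes under 200 genes were fewer in the controls. Barcodes above 10% mitochondrial UMIs were more numerous there. Kept cells in no gate held 745 UMIs of the 10 genes in Treated 1 (199 cells) and 375 in Treated 2 (118 cells), against 27 and 17 such cells in the controls. In Treated 1 and Treated 2, 510 and 191 of these UMIs were of Igkc. The 56 and 24 cells left out of all gates with at least 2 B gene and 5 or more keratin UMIs held 470 and 137 Igkc UMIs. Barcodes under 200 genes held 7 UMIs over 433 barcodes in Treated 1 and 31 over 380 in Treated 2, with at most 1 UMI in a barcode, against 12 and 1 such barcodes in the controls. Barcodes above 10% mitochondrial UMIs held 3 UMIs over 13 barcodes in Treated 1 and 91 over 12 in Treated 2, against 49 and 28 barcodes in the controls.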

How the results depend on the processing

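Over the alternatives run, no result reversed. The counts of members higher in SP11 stayed within 1.5 times of their values over all kept cells and in tumor cells. The kappa share of 69.8% moved to 66.1% with Krt8 and Krt18 at 0, and to 50.7% with at least 10 light chain UMIs and a 90% share. The share of cells led by Ighm moved from 58.0% to 66.0% with at least 500 genes and to 26.7% with at least 5 heavy chain UMIs, which fewer cells reach, and the switched share from 4.88% to 1.54% with the latter. The Igkc level of tumor cells moved from 0.102% to 0.141% of the B-gated level with the plasma cells left out, an alternative chosen after seeing the data. Leaving out each SP11 library gave 67.6% to 72.0% for kappa, 54.4% to 61.6% for Ighm, 2.22% to 7.55% for switched calls, 4.44% to 16.4% for Ighm with Ighd, 1 to 2 plasma cells, and 0.0796% to 0.124% (tumor) and 0.193% to 0.572% (myeloid) for Igkc. The number of plasma cells was not recomputed with the stricter B gate, which does not enter it.

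Over all kept cells 10 members were called with the replicate block, against 12.5% of genes. The other alternatives that kept all 4 libraries gave 7 to 10, against 0.637% to 9.06% of genes. The 7 came from the seed that marked 88.9% of Control 1 as doublets and left it 102 cells, an alternative added after seeing the data, in which Jchain (adjusted p = 0.0684) and Ighd (adjusted p = 0.496) were not called. In tumor cells 4 were called with the block and 5 without the filter, against 4.11% and 1.04% of genes. The added gene was Iglc2 (edgeR adjusted p = 0.0366). In myeloid cells no member passed the filter in the settings that kept all 4 libraries, so the 0 calls there were fixed in advance. Without the filter 9 members were tested and 0 were called, against 1% of genes. The replicate numbers are shared only as numbers, with 2 pairs, and the deviations of same-numbered libraries correlated at 0.12 over all kept cells. The 70 and 36 B-gated cells under 2 heavy chain UMIs had a median of 851 and 1046 UMIs, against 1023 and 2089 in those led by Ighm.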
